A study of Rattus norvegicus with 12 samples.

Results

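The small interfering RNA (siRNA) against Btg1 was compared with a scrambled siRNA in cardiomyocyte-enriched cultures from heart ventricles of newborn (P0) wild-type Sprague-Dawley rats. The 6 libraries compared were the 3 of the Btg1 knockdown and the 3 of the scramble control, chosen by the treatment named in the sample titles, out of 12 in the study. All 12535 genes that passed a filter on low counts were tested, out of 17419 in the deposited count table. Control cultures had 20 nM scramble, and Btg1 knockdown cultures had 10 nM of the Btg1 siRNA beside 10 nM scramble, so every culture held 20 nM siRNA in all. Each culture went through the same lipid transfection and was collected 48 h later. The other 6 libraries came from cultures with 10 nM of a Btg2 siRNA, either beside 10 nM scramble or beside 10 nM of the Btg1 siRNA with no scramble. They were used where stated, to see the same Btg1 siRNA at work in libraries that share nothing with the main comparison. The sources used here describe the reagent only as a commercial rat siBtg1, so loss of Btg1 and any other action of that reagent cannot be told apart. Fibroblasts were separated off before plating.

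Btg1 belongs to the BTG/TOB family, small proteins that slow proliferation. Through a conserved domain they bind the CAF1 nucleases of the CCR4-NOT complex, which shortens poly(A) tails and so marks messenger RNA for decay. Ventricular cardiomyocytes of rodents leave the cell cycle in the days after birth, while their sarcomeres, calcium stores and metabolism mature.

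Library totals ran from 33248851 to 46206581 counts in the 6 libraries. Whether replicates are separate cultures, litters or repeat preparations is not in the labels, so each p-value reflects the spread among these libraries, and that spread may be technical. All cardiomyocyte markers looked at were present, with means in scramble from 59.9 TPM (transcript abundance scaled for gene length and depth) for Ryr2 to 7099 for Tnnt2, the cardiac troponin T gene. The cultures were mixed: the 14 fibroblast markers summed to 7820.3 to 8038 TPM in scramble, against 33217 to 34049.8 for the cardiomyocyte markers. Endothelial, macrophage and erythroid markers were low there, at sums of 190.3 to 199, 78.7 to 94.5 and 6.60 to 7.50 TPM. By these markers fibroblast RNA was present after the separation step.

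Btg1 was the most reduced gene of those named. It stood at 285, 281 and 284 CPM (counts scaled to library total) in scramble replicates 1 to 3 and at 69.9, 61.8 and 66.8 in Btg1 knockdown replicates 1 to 3. The 2 groups lay far apart, and 23.4% of the control level was left, a log2 change of -2.10 ± 0.04 (SE; edgeR quasi-likelihood test, adjusted p = 6.4e-20). In all that follows, CPM are given for replicates 1 to 3 in that order, a change is a log2 difference with its SE, and a gene is called when its edgeR adjusted p is under 0.05. Its closest relative Btg2 went the other way, from 139.7, 132 and 144 to 169.8, 179 and 177 CPM, with every knockdown library above every control (0.34 ± 0.04, adjusted p = 7.5e-07). Btg3 rose as well (0.27 ± 0.06), while Tob1 (-0.01 ± 0.05) and Tob2 (-0.04 ± 0.07), the larger members of the family, did not pass.

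Genes of the machinery that BTG proteins contact changed in both directions. Of 29 tested genes of deadenylation and decay, 8 rose and 5 fell, with a median of -0.01; 44.8% were called, beside 36.5% of all genes tested. Without scramble replicate 2, 3 fell. The CAF1 nuclease gene Cnot7 (-0.08 ± 0.06) and the CCR4-type Cnot6 (0.09 ± 0.06) did not pass, and Cnot6l, a close relative of Cnot6, rose (0.32 ± 0.08). Members of decapping and 5′ decay rose in 4 of 7 cases, among them the exonuclease Xrn1 (0.32 ± 0.07) and the decapping activator Patl1 (0.33 ± 0.05). The poly(A)-binding protein gene Pabpc1 stood at 797 ± 8.60 CPM in scramble and 766 ± 8.29 in the knockdown (SD, n = 3 each) and was not called.

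Across the transcriptome many genes moved a little. Of all genes tested, 36.5% were called, 18.7% higher and 17.8% lower. These shares are the background against which each gene group below is read. The median size of a called change was 0.29 on the log2 scale, and 1973 of the 4571 called genes moved by less than 1.2-fold. Changes of at least 1.5-fold were called in 3.31% of genes upward and 2.62% downward. A fall or rise of at least 2-fold was called in 92 and 143 genes. In 50.1% of genes the 3 libraries of one group all lay above the 3 of the other. Such separation was a condition for naming the largest rises and falls below, so it adds no support for them. A mean of at least 5 CPM and an established symbol were conditions too. Over all genes tested the log2 changes ran from -6.22 to 3.06, beyond those of the named genes. In bulk RNA, fewer cells of a type and less RNA per cell cannot be told apart, and this holds for each gene group below.

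**Figure D1:**
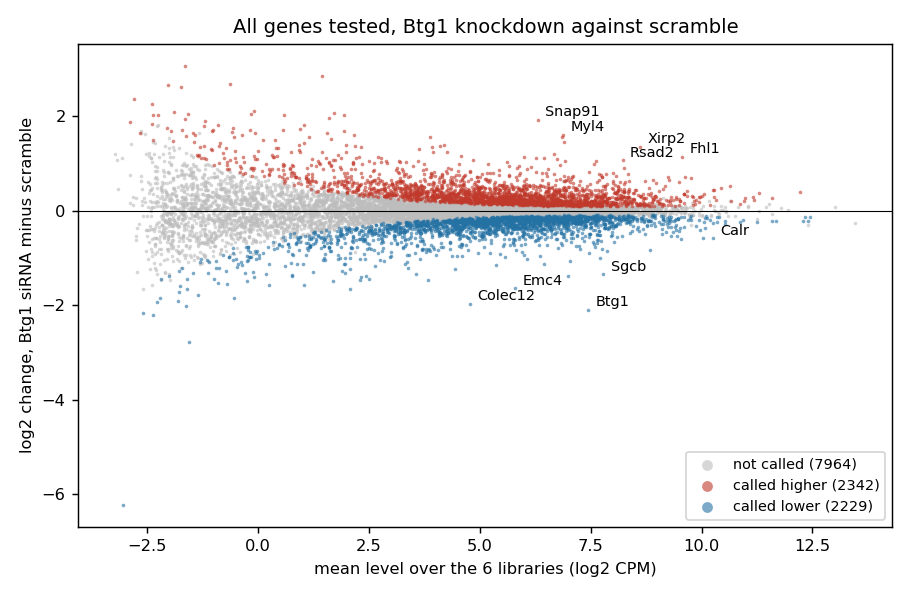
Log2 change in the Btg1 knockdown against scramble (y axis) by mean level over the 6 libraries (x axis, log2 CPM) for each gene tested; called rises are red, called falls blue, others grey. Called genes lie at all levels and most sit close to 0, while Btg1 at -2.10 and Snap91 at 1.92 mark the lower and upper edge of the named genes.

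The named genes that rose most were a mixed set in which muscle and cytoskeletal genes recurred. Myl4, an essential myosin light chain of atrial and fetal heart, stood at 58.2, 58.1 and 59.3 CPM in scramble and 175, 174 and 185 in the knockdown. Xirp2, an actin-binding repeat protein of muscle attachment sites, went from 210.0, 222 and 228 to 556, 451 and 675 CPM. Fhl1, a LIM-domain protein of the sarcomere, went from 410.1, 495 and 510.1 to 927, 1019 and 1185 CPM. In all 3 the lowest knockdown library exceeded the highest control by a wide margin, and in Xirp2 the knockdown libraries themselves differed, with replicate 2 lowest and replicate 3 highest. Their changes were 1.60 ± 0.07, 1.35 ± 0.15 and 1.14 ± 0.10 (edgeR adjusted p = 1.5e-11, 1.4e-04 and 8.0e-06).

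The calponin gene Cnn1, which encodes an actin-binding protein of smooth muscle, stood at 57.6, 65.9 and 67.3 CPM in scramble and 164, 161 and 195 with the Btg1 siRNA. Lmcd1, a LIM-domain protein, stood at 59.1, 59.4 and 56.8 against 154, 159 and 202. Itga6, the laminin receptor subunit alpha 6, stood at 57.9, 64.0 and 63.5 against 139, 136 and 153. Each of these genes was more than 2-fold higher with no overlap (1.45 ± 0.07, 1.55 ± 0.13 and 1.21 ± 0.05). Snap91, a clathrin assembly protein best known from synapses, was at 23.5, 37.1 and 38.4 CPM in scramble and 118, 121 and 138 in the knockdown, where scramble replicate 1 was clearly below the other 2 (1.92 ± 0.16). The CREB-family factor Creb5 was lower in level, at 6.56, 8.36 and 7.29 and 21.0, 18.4 and 26.1 CPM (1.55 ± 0.12).

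The other large rises included receptors, a transporter and a kinase. They were the protease-activated receptor F2rl1 (1.30 ± 0.14), the lysophosphatidic acid receptor Lpar3 (1.23 ± 0.08), the salt-inducible kinase Sik1 (1.16 ± 0.08) and the lysosomal peptide transporter Abcb9 (1.37 ± 0.09). Sypl2, a membrane protein of the triad junction of muscle, rose by 1.40 ± 0.09, and Zfp365, a zinc finger gene, by 1.24 ± 0.07.

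The largest falls were also a mixed set, and several were genes of membrane proteins. Sgcb, the beta subunit of the sarcoglycan complex at the muscle membrane, stood at 325, 310.2 and 317 CPM in scramble and 127, 123 and 124 in the knockdown. Atp1b2, a beta subunit of the sodium pump, stood at 194, 181 and 177 against 74.4, 76.7 and 60.4. Emc4, a subunit of the complex that inserts proteins into the endoplasmic reticulum membrane, stood at 84.6, 83.2 and 84.9 against 25.4, 25.6 and 29.9. Within each group these 3 genes varied little, and the knockdown left 39.3%, 38.3% and 32.1% of their control levels (-1.35 ± 0.04, -1.38 ± 0.06 and -1.64 ± 0.05, edgeR adjusted p = 9.4e-17, 5.9e-12 and 5.0e-16).

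Of the falls named here, that of the scavenger receptor gene Colec12 was the largest after Btg1, from 45.2, 42.8 and 44.2 to 12.3, 9.11 and 12.3 CPM (-1.97 ± 0.09). Smoc2, a secreted matrix-associated calcium-binding protein, fell from 129, 117 and 115 to 57.2, 54.0 and 54.6 CPM (-1.12 ± 0.05). Gpr22, an orphan receptor of heart and brain, fell from 64.9, 49.4 and 57.6 to 29.1, 26.4 and 21.1 CPM (-1.16 ± 0.12). No knockdown library of the 3 genes reached the lowest control library. The sodium channel beta subunit Scn4b (-1.23 ± 0.07), the mitochondrial carrier Slc25a34 (-1.47 ± 0.09), the mitochondrial calcium-binding protein Efhd1 (-1.45 ± 0.13) and the sodium-proton exchanger Slc9a3 (-1.38 ± 0.14) fell by a similar amount. So did the neural proteoglycan Cspg5 (-1.34 ± 0.12), the elongation factor relative Tceal1 (-1.22 ± 0.09), Capn6, a calpain without protease activity (-1.18 ± 0.15), and the ubiquitin ligase Trim50 (-1.13 ± 0.18).

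**Figure D2:**
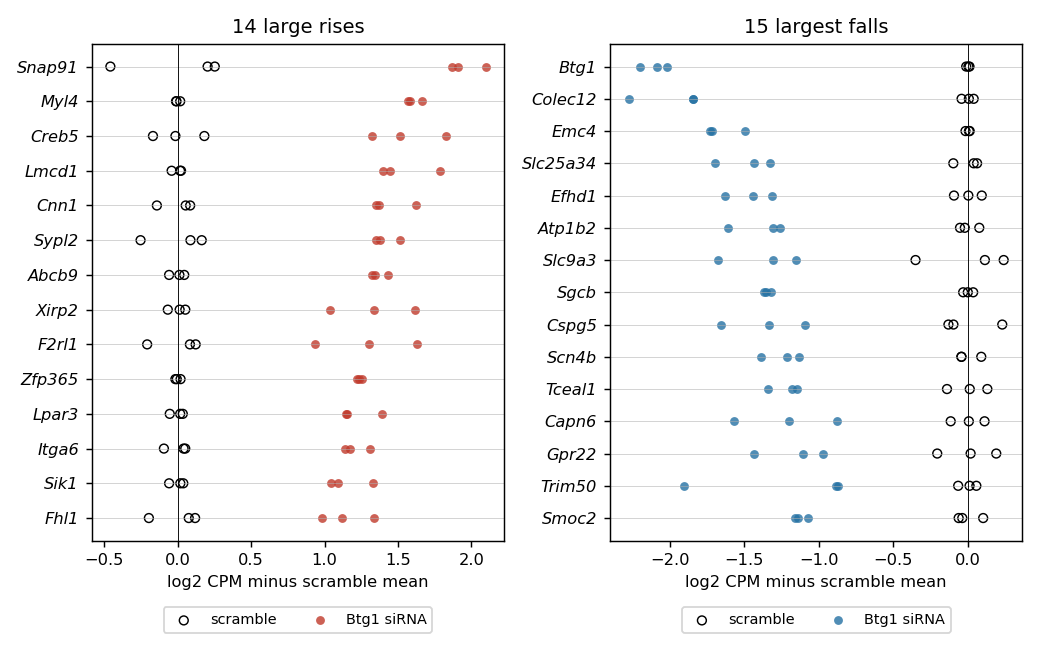
Level of 14 of the genes that rose most and the 15 that fell most, per library, as log2 CPM minus the scramble mean (x axis); each row is a gene, open circles are the 3 scramble libraries and filled circles the 3 Btg1 knockdown libraries. The 2 groups are separate in every row, and Snap91 shows one scramble library below the others.

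Genes of the interferon response rose as a group. Interferon and RNA sensor pathways switch on antiviral effector genes through STAT and IRF factors. Of 39 tested members 30 rose and 4 fell, with a median of 0.37 against 0.00 over all genes. The list's mean, relative to the scramble mean, was 0.33, 0.36 and 0.19 in the knockdown libraries and 0.01, 0.01 and -0.01 in the controls. Without scramble replicate 1 or Btg1 knockdown replicate 3 the list's falls numbered 2 and 2. Replicate 3 of the knockdown was the lowest of its group, still above each control. Transfected double-stranded RNA was present in both groups at the same total amount, but in the knockdown the Btg1 siRNA replaced part of the scramble. Whether the scramble and Btg1 siRNAs differ in how strongly the RNA itself raises these genes was not tested.

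Many of these genes share a short promoter element bound by interferon-regulated factors. The letters GAAANNGAAA, read on both strands of the 250 bases before the RefSeq gene start, were found in 16 of 28 members that had a promoter in the reference table. Over all 9810 tested genes with a promoter the share was 2.64%. These 3 promoters are shown because their genes were among the rises; capitals mark the match, and coordinates are those of RefSeq on GRCr8, at chr6:48788121-48788370 on the minus strand for Rsad2, chr14:15988816-15989065 on the plus strand for Cxcl10 and chr1:241527076-241527325 on the plus strand for Ifit3.
Rsad2: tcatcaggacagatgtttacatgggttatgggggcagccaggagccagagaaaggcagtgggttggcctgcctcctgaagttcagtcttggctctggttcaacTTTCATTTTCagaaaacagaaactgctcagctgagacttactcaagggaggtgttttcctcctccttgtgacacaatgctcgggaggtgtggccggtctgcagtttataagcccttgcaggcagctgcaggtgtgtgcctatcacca
Cxcl10: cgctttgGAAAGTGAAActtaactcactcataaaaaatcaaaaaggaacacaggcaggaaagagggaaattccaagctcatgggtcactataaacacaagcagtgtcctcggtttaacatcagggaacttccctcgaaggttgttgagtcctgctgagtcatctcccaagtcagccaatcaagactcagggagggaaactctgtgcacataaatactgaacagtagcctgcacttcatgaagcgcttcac
Ifit3: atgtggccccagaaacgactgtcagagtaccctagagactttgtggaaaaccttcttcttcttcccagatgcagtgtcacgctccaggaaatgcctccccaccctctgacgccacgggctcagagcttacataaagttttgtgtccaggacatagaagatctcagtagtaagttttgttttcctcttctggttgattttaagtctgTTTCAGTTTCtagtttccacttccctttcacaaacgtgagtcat
Of the 16 members with the match, 14 rose and 0 fell; of those without it, 7 rose and 4 fell. Over all 259 genes with the match, in or out of the list, 24.7% were called higher, against 18.9% of all genes with a promoter. A match of letters is a description, not a binding site.

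Among antiviral effectors 17 of 20 rose. Rsad2, the antiviral enzyme viperin, stood at 194, 189 and 197 CPM in scramble and 418, 441 and 355 in the knockdown (1.07 ± 0.06). Mx1, a dynamin-like antiviral GTPase, stood at 212, 224 and 207 against 328, 341 and 265 (0.54 ± 0.07). The groups did not overlap in either gene. Of the RNA sensors, Ddx58, which encodes RIG-I, went from 163, 159.8 and 162 to 265, 258 and 236 CPM (0.65 ± 0.04) and Ifih1, which encodes MDA5, rose by 0.43 ± 0.05. The factors that carry the signal moved less: Irf7 by 0.23 ± 0.04 and Stat2 by 0.20 ± 0.04, while Irf1 (0.02 ± 0.05) was not called. Of the feedback genes Usp18 rose by 0.52 ± 0.04 and Socs1 by 0.65 ± 0.14. Socs3, named after its values were seen, was called lower (-0.17 ± 0.05), a call lost when Btg1 knockdown replicate 3 or scramble replicate 1 was left out (edgeR adjusted p = 0.073 and 0.081).

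Chemokines of the response split. Cxcl10 rose from 246, 244 and 246 to 364, 407 and 354 CPM and Ccl5 from 16.2, 15.9 and 14.6 to 25.7, 26.9 and 23.8. Cxcl11, a ligand of the same receptor as Cxcl10, fell from 86.1, 75.0 and 80.2 to 42.4, 49.6 and 39.1 CPM (-0.88 ± 0.07). The groups were separate in all 3 genes, in opposite directions for Cxcl10 and Cxcl11. The adaptor Mavs, which relays signals from both RNA sensors, also fell (-0.24 ± 0.05).

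Antigen presentation by MHC class I moved in the same direction with smaller steps. Of 16 tested genes 8 rose and 0 fell (median 0.18). The immunoproteasome subunit Psmb8 rose by 0.52 ± 0.06, the proteasome activator Psme2 by 0.35 ± 0.07, the loading factor Tapbpl by 0.34 ± 0.04 and the peptide transporter Tap1 by 0.21 ± 0.05. B2m, the shared light chain, stood at 1266 ± 56.7 CPM in scramble and 1259 ± 65.8 in the knockdown (SD, n = 3 each) and was not called. RT1 genes are near-identical copies, and reads may have been split between them, so RT1-S3 (0.30 ± 0.04) is uncertain.

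Stress genes of the endoplasmic reticulum fell. The unfolded protein response adjusts chaperones to the load of secreted protein, and the integrated stress response acts through ATF4 on amino acid supply. Of 48 tested members 27 fell and 2 rose, with a median of -0.17. Relative to the scramble mean, the list's mean was -0.19, -0.12 and -0.17 in the knockdown libraries, all below the controls at 0.03, 0.00 and -0.02. The chaperone gene Calr, for calreticulin, stood at 1519, 1423 and 1434 CPM in scramble and 975, 974 and 978 in the knockdown (-0.58 ± 0.04). Hspa5, for the main chaperone BiP, moved less, from 1489, 1346 and 1385 to 1176, 1219 and 1181 CPM (-0.24 ± 0.04). Neither pair of groups overlapped.

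These 2 promoters are shown because each holds the endoplasmic reticulum stress element, in capitals, written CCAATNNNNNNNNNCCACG and searched on both strands. They lie at chr19:40213117-40213366 on the plus strand for Calr and chr3:38452766-38453015 on the plus strand for Hspa5 (RefSeq, GRCr8).
Calr: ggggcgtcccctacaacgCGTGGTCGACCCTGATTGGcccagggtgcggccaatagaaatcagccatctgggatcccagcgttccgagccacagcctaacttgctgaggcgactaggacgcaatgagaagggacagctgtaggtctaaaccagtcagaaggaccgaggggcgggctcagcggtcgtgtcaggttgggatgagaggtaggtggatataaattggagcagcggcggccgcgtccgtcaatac
Hspa5: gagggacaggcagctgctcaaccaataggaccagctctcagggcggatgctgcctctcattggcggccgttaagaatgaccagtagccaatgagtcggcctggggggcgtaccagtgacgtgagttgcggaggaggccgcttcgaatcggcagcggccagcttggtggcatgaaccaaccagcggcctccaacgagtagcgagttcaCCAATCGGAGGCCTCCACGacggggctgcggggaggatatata
The element was in 9 of 41 members with a promoter and in 0.163% of all promoters. Of the 16 tested genes that hold it, 9 were called lower and 0 higher. Within the list, members with the element gave 5 lower, 0 higher and 4 not called, and members without the element gave 19 lower, 1 higher and 12 not called.

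Transcription factors of the stress response fell with the chaperones: Atf4 (-0.25 ± 0.04), Ddit3, which encodes CHOP (-0.39 ± 0.05), Atf5 (-0.41 ± 0.04) and Trib3, an inhibitory pseudokinase (-0.47 ± 0.09). Xbp1 (0.02 ± 0.04) and the kinase gene Eif2ak3 (-0.01 ± 0.06) were not called, and the sensor Ern1 rose (0.35 ± 0.07). Of 12 amino acid genes downstream of ATF4, 8 fell and 0 rose. Slc7a5, the leucine transporter, went from 218, 219 and 207 to 149, 172 and 163 CPM (-0.41 ± 0.05), and Psat1 of serine synthesis fell (-0.42 ± 0.06). Aminoacyl-tRNA synthetase genes, which charge tRNA with amino acids, fell in 10 of 20 cases and rose in 1, led by Iars1 for isoleucine (-0.50 ± 0.04).

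Lysosome and autophagy genes also leaned down, 17 of 32 lower and 2 higher (median -0.13). The protease Ctsd stood at 1063, 1039 and 1009 CPM in scramble and 817, 842 and 843 in the knockdown (-0.31 ± 0.04). Lamp1, a lysosomal membrane protein, fell (-0.30 ± 0.04), as did the autophagy kinase Ulk1 (-0.36 ± 0.06) and the autophagy conjugation factor Atg5 (-0.59 ± 0.06). In the translocation machinery of the endoplasmic reticulum 9 of 35 genes fell and 3 rose. Beside Emc4 the falls included Ssr2, a subunit of the translocon-associated complex (-0.88 ± 0.04). Of the other subunits of the insertase complex, Emc1 rose (0.44 ± 0.04), and the others tested, such as Emc2 (-0.06 ± 0.05), Emc3 (0.00 ± 0.04) and Emc10 (-0.04 ± 0.04), were not called.

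Genes of mitosis rose. They drive chromosome condensation, spindle assembly and division, and their transcripts peak late in the cell cycle. Among 43 tested G2/M genes, 28 were called higher and 0 lower, and the median change was 0.34. Without scramble replicate 1 or Btg1 knockdown replicate 3 the rises numbered 19. They were 21 without scramble replicate 2, 22 without Btg1 knockdown replicate 1, and 31 without scramble replicate 3 or Btg1 knockdown replicate 2. The list's mean relative to scramble was 0.30, 0.15 and 0.40 in the knockdown libraries and -0.12, -0.02 and 0.14 in the controls, so knockdown replicate 2 sat next to scramble replicate 3. Levels were low: Ccnb1, the mitotic cyclin, stood at 18.9, 18.4 and 22.7 CPM in scramble and 26.0, 24.3 and 29.5 in the knockdown (0.41 ± 0.08). The cytokinesis genes Prc1, a crosslinker of the spindle midzone, at 33.8, 37.1 and 42.9 and 62.4, 57.0 and 69.5 CPM (0.73 ± 0.10), and Ect2, the exchange factor that starts furrowing (0.71 ± 0.11), moved more. Among kinases Plk1 rose by 0.45 ± 0.10 and Cdk1 by 0.36 ± 0.09, and the kinetochore gene Cenpf rose by 0.57 ± 0.07. Aurkb (-0.04 ± 0.11), Bub1b (-0.05 ± 0.13), Kif23 (-0.09 ± 0.10) and Birc5 (0.10 ± 0.13) were among the 15 that were not called.

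The cell cycle homology element TTTGAA, known from promoters of late cell cycle genes, was in 19 of 36 G2/M promoters and 10.0% of all promoters. The one of Prc1, at chr1:143659231-143659480 on the plus strand (RefSeq, GRCr8), is shown as the member that rose most, with the element in capitals.
Prc1: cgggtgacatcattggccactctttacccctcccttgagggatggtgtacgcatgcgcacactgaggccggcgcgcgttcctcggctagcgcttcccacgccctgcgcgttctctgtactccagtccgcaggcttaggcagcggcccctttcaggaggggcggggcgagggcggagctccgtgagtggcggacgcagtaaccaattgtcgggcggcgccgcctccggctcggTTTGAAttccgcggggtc
Members with the element rose in 10 of 19 cases, and those without it in 12 of 17.

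Replication genes rose less evenly. Of 40 tested G1/S members 19 rose and 3 fell; without knockdown replicate 3, 12 rose and 2 fell. The helicase subunit Mcm6 rose from 31.3, 36.7 and 35.3 to 47.6, 47.5 and 51.6 CPM (0.50 ± 0.08), and the S-phase factor E2f1 by 0.62 ± 0.11. Pcna, the polymerase clamp, stood at 71.0, 75.2 and 72.3 and 74.1, 74.1 and 72.4 CPM, overlapping, and was not called (0.01 ± 0.05). Of the D-type cyclins, which open G1, Ccnd3 fell from 234, 245 and 229.9 to 142, 143 and 153 CPM (-0.70 ± 0.04), Ccnd1 fell (-0.17 ± 0.05) and Ccnd2 rose by 0.20 ± 0.05. Among inhibitors, Cdkn1b, for p27, fell (-0.36 ± 0.06), Cdkn1c, for p57, rose (0.48 ± 0.06), and Cdkn1a, for p21, was not called (-0.06 ± 0.04). The fibroblast marker sum over the same libraries was lower in the knockdown, at 6438 to 7239 TPM, than in scramble; which cells carried the mitotic transcripts was not tested.

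Sarcomere genes rose more often than they fell. The sarcomere is built of thick myosin filaments and thin actin filaments anchored in the Z-disc. Of 32 tested genes 18 rose and 5 fell (median 0.20): 8 of 10 rose at the Z-disc, 6 of 10 in the thin filament and 4 of 12 in the thick filament. Without Btg1 knockdown replicate 1 the thick filament gave 7 rises, and the falls of the whole list were 3 without that library and 3 without scramble replicate 3. Csrp3, the Z-disc muscle LIM protein, stood at 549, 591 and 569.6 CPM in scramble and 805, 804 and 988 in the knockdown (0.60 ± 0.06). Synpo2l, a Z-disc protein, rose by 0.66 ± 0.05, Nrap by 0.42 ± 0.05 and the intermediate filament gene Des by 0.37 ± 0.05.

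The actin genes of striated muscle rose together. Acta1, the skeletal isoform, went from 518, 642 and 634 to 807, 971 and 1147 CPM (0.70 ± 0.15), and Actc1, the cardiac isoform, from 4066, 4106 and 4179 to 4699, 5342 and 6108 (0.39 ± 0.07). In both, replicate 3 of the knockdown was highest and the groups did not overlap. Some major contractile genes moved little. The alpha myosin Myh6 was at 7989 ± 161 and 8492 ± 402 CPM (SD, n = 3 each), called only without Btg1 knockdown replicate 1 (edgeR adjusted p = 0.049). Troponin T, Tnnt2, was not called either (0.01 ± 0.07). Others fell: in the thick filament 4 of 12 genes were called lower, and 2 or 3 with 1 library left out. The troponin I gene Tnni3 had means of 2772 TPM in scramble and 2498 in the knockdown. Myom3, an M-band gene at a few CPM, fell (-1.05 ± 0.16). The sum of 10 cardiomyocyte markers was 34280.3 to 39469.5 TPM in the knockdown, above the control range, with 4 called higher and 3 lower. Actc1 and Nppa, themselves among the rises named here, are in that sum. Their means were 5464 and 4982 TPM in scramble and 7109 and 6046 in the knockdown. The part of cardiomyocyte RNA in these rises was not tested.

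Genes that mark hypertrophy and stretch rose in 7 of 11 cases and fell in 1; the fall was called in 1 of the 6 fits that left out a library, the one without Btg1 knockdown replicate 3. Ankrd1, a stretch-responsive titin-binding protein, stood at 2886, 2693 and 2819 CPM in scramble and 3059.9, 3333 and 3715 in the knockdown (0.27 ± 0.06). Nppa, for atrial natriuretic peptide, rose by 0.29 ± 0.08 (edgeR adjusted p = 0.016), a call lost when Btg1 knockdown replicate 3, scramble replicate 1 or scramble replicate 2 was left out (adjusted p = 0.056, 0.053 and 0.055). Without a filter on low counts its adjusted p was 0.055. Nppb, its B-type relative, missed the threshold (0.20 ± 0.09, adjusted p = 0.088) but passed it without Btg1 knockdown replicate 1 (adjusted p = 3.9e-04). Rcan1, a calcineurin inhibitor that is itself a calcineurin target, rose by 0.29 ± 0.05.

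Actin-linked targets of the factors SRF and YAP followed the same direction, 16 of 29 higher and 3 lower. Ccn1, a secreted YAP target, stood at 148, 156 and 149.6 CPM in scramble and 243, 256 and 282 in the knockdown (0.78 ± 0.05), and Ccn2 at 635, 686 and 673 and 942, 1131 and 1136 (0.69 ± 0.09). Tagln, a smooth muscle actin-binding protein, rose by 0.62 ± 0.05, Srf itself by 0.41 ± 0.06 and its cardiac cofactor Myocd by 0.72 ± 0.06. Nonmuscle actin moved the other way: Actb fell (-0.19 ± 0.05). The 11 smooth muscle and pericyte markers summed to 3309 to 4048 TPM in the knockdown and 2831 to 3061 in scramble, with 3 called higher and 2 lower. Cnn1 and Tagln are in both lists, the smooth muscle myosin gene Myh11 was not called (0.17 ± 0.08), and the part of such cells in the rise was not tested.

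Immediate early genes and the feedback inhibitors of ERK signalling, which respond within minutes to growth signals, rose in 14 of 32 cases and fell in 4. Atf3 stood at 36.0, 34.2 and 33.7 CPM in scramble and 60.3, 68.7 and 70.2 in the knockdown (0.94 ± 0.07), and Egr1 at 46.3, 45.7 and 43.4 against 60.4, 62.6 and 68.7 (0.50 ± 0.06). Jund rose by 0.56 ± 0.12, the phosphatases Dusp1 and Dusp6 by 0.43 ± 0.06 and 0.38 ± 0.05, and Spry4 by 0.32 ± 0.05. Klf4, a Krüppel-like factor, fell from 100.2, 90.4 and 95.7 to 61.8, 65.3 and 63.5 CPM (-0.59 ± 0.05), against the direction of the list.

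**Figure D3:**
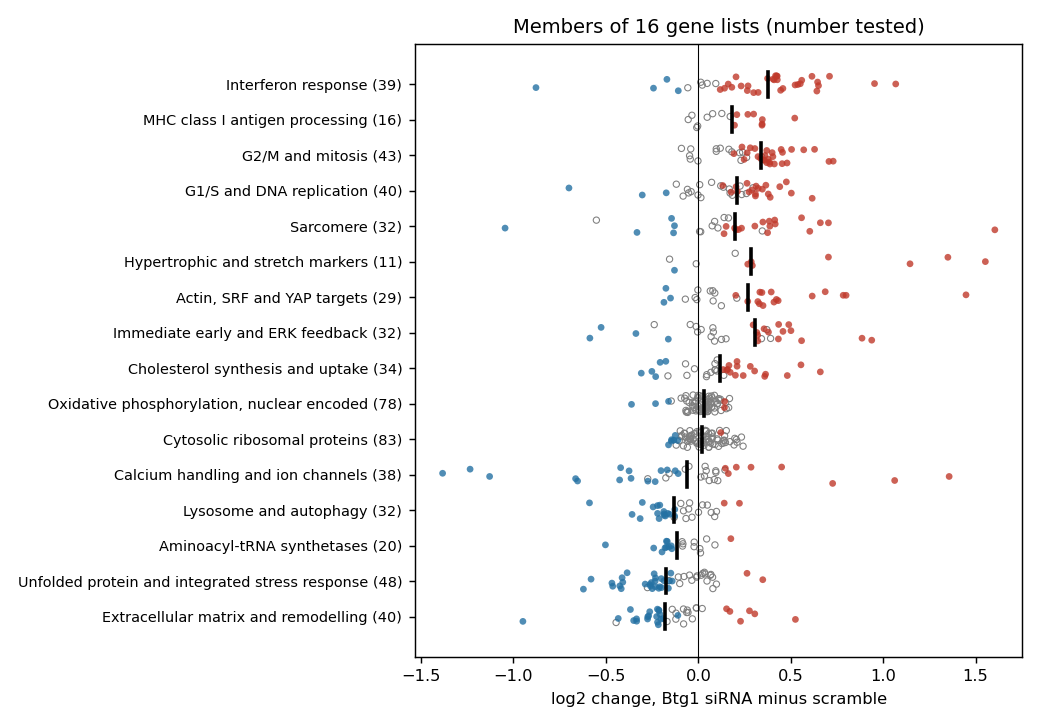
Log2 change in the Btg1 knockdown against scramble (x axis) of each tested member of 16 gene lists (rows); filled points were called, open points were not, and the bar is the list's median. Interferon genes lie mostly to the right of 0 with a median of 0.37, unfolded protein genes mostly to the left with -0.17, and oxidative phosphorylation genes cluster at 0.03.

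Atrial-enriched genes moved as single genes: of 11 tested 3 rose and 2 fell. Beside Myl4, its atrial partner Myl7 rose from 30.7, 35.1 and 29.9 to 41.7, 42.3 and 43.6 CPM (0.41 ± 0.08), while Dkk3, a secreted glycoprotein, fell from 924, 878 and 888 to 599, 628 and 542 (-0.61 ± 0.05).

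The CArG box, the letters bound by SRF, was found in 4 of 23 early gene promoters, 4 of 25 sarcomere promoters and 1.10% of all promoters in the same 250 bases. In the list of SRF and YAP targets it was in 2 of 23 promoters. Its share was 1.60% in genes that rose at least 1.5-fold and 1.17% in those that fell as much. Of all 108 genes that hold it, 30.6% were called higher and 13.9% lower, against 18.9% and 18.0% of all genes with a promoter. The AP-1 element, TGACTCA or TGAGTCA, was in 8.17% of the 257 promoters of genes that fell at least 1.5-fold, 3.51% of the 313 of those that rose as much and 3.20% of all. These shares are descriptions with no test.

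Excitation genes leaned down with exceptions in both directions. Of 38 tested genes 15 fell and 8 rose. The sodium channel subunit gene Scn4b, among the largest falls above, stood at 32.3, 29.4 and 29.4 CPM in scramble and 13.8, 13.1 and 11.6 in the knockdown, with no overlap. Pln, the brake on the calcium pump, fell (-0.37 ± 0.04), as did the release channel Ryr2 (-0.20 ± 0.04). Casq1, the skeletal calcium-storing calsequestrin, rose from 122, 124 and 136 to 266, 254 and 279 CPM (1.06 ± 0.06), and the junctional protein Jph2 rose by 0.45 ± 0.07. Sodium pump genes fell in 5 of 7 cases, including the beta subunit gene Atp1b3 (-0.27 ± 0.04).

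Genes of cell-cell junctions and of the dystrophin complex changed member by member, 7 higher and 6 lower of 20. Gja1, for connexin 43, stood at 1296, 1210.4 and 1241 CPM in scramble and 833, 886 and 787 in the knockdown (-0.58 ± 0.04), and Gja5, for connexin 40, fell (-0.61 ± 0.07). Cdh2, for N-cadherin, went from 1186, 1107 and 1152 to 865, 871 and 856 CPM (-0.41 ± 0.04). The scaffold Tjp1 rose by 0.63 ± 0.04. In the dystrophin complex the fall of Sgcb came with one of its partner Sspn, for sarcospan (-0.84 ± 0.04), whereas Sgca (0.04 ± 0.05) and Dag1 (0.08 ± 0.03) were not called and Dmd rose (0.21 ± 0.05). Of 16 cardiac factors 8 rose and 3 fell, with Tbx20 at 0.51 ± 0.06, Gata4 at 0.27 ± 0.04, Irx4 at -0.39 ± 0.05 and Hopx at -0.52 ± 0.06.

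Secreted signals changed in both directions. In the TGF-beta, activin and BMP list 13 of 40 rose and 5 fell. Inha, the inhibin alpha subunit, stood at 48.0, 47.7 and 51.1 CPM in scramble and 103, 106 and 109.9 in the knockdown (1.12 ± 0.04), Tgfb2 rose by 0.80 ± 0.10 and Bmp7 by 0.85 ± 0.06. Ltbp2, a latent TGF-beta binding protein, fell (-0.69 ± 0.05). Growth factors and receptors split, 9 higher and 13 lower of 48. Vegfa, the endothelial growth factor, fell from 828, 817 and 847 to 620.1, 667 and 639 CPM (-0.37 ± 0.04) and the endothelin receptor Ednra from 249.6, 245 and 238 to 165, 161 and 149 (-0.62 ± 0.04). Fgfr1 fell (-0.58 ± 0.05), Hbegf rose by 0.91 ± 0.11, and the insulin receptor gene Insr rose by 0.52 ± 0.05.

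Cholesterol genes rose in 16 of 34 cases and fell in 5. Sc5d, a desaturase of the later steps of synthesis, stood at 71.4, 73.5 and 76.7 CPM in scramble and 89.6, 89.8 and 94.4 in the knockdown (0.30 ± 0.05). Hsd17b7, an enzyme of the same steps, rose by 0.56 ± 0.08. Fatty acid genes leaned down, 11 lower and 4 higher of 33, with Cpt1a, the gate of mitochondrial import, at -0.46 ± 0.04 and Lpl at -0.39 ± 0.05. Glycolysis genes gave 3 higher and 5 lower of 26, among them Pfkp, a phosphofructokinase (0.58 ± 0.04), and Hk2, a hexokinase (-0.39 ± 0.05).

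Large housekeeping complexes held few called genes. Of the nuclear genes of oxidative phosphorylation 2 rose and 3 fell among 78 tested, or 6.41% called, beside 36.5% of all genes. Cytosolic ribosomal proteins gave 1 rise and 6 falls of 83, mitochondrial ribosomal proteins 6 and 7 of 71, and proteasome subunits 2 and 7 of 38. These few calls moved with single libraries. For oxidative phosphorylation 8 genes were called without Btg1 knockdown replicate 1 and 2 or 3 without any other of the 6 libraries. For cytosolic ribosomal proteins it was 1 to 4 without any library but Btg1 knockdown replicate 3, whose removal gave 8. Without scramble replicate 1, 8 mitochondrial ribosomal proteins and 5 proteasome subunits were called, and without Btg1 knockdown replicate 3, 5 proteasome subunits. With only these 6 libraries in the fit, 11 genes of oxidative phosphorylation and 15 cytosolic ribosomal proteins were called.

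Stress pathways outside the endoplasmic reticulum gave smaller groups of calls. Targets of p53 leaned down, 7 lower and 2 higher of 18. Ccng1, a cyclin G induced by p53, stood at 764, 718 and 771 CPM in scramble and 604, 591 and 584 in the knockdown (-0.34 ± 0.04), and Rrm2b, a ribonucleotide reductase subunit, fell (-0.47 ± 0.11). In the NRF2 list 5 rose and 6 fell of 21. The rises numbered 2 without scramble replicate 1, Btg1 knockdown replicate 1 or Btg1 knockdown replicate 2, and 3 without scramble replicate 2 or 3. Nqo1, a quinone reductase, fell (-0.40 ± 0.05), as did Slc7a11, the cystine transporter (-0.46 ± 0.08), and Gsta4, a glutathione transferase (-0.59 ± 0.05), while its relative Gstm1 rose (0.39 ± 0.06).

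Matrix genes fell, and so did markers of the fibroblasts that make them. Of 40 tested matrix genes 20 fell and 6 rose (median -0.18). Eln, for elastin, stood at 244, 241 and 225 CPM in scramble and 179, 163 and 184 in the knockdown (-0.43 ± 0.05). Col6a2 fell (-0.35 ± 0.05), as did the matrix protease Mmp2 (-0.26 ± 0.04) and biglycan, Bgn (-0.27 ± 0.05). Lamc1, a laminin chain, rose from 1306, 1296 and 1314 to 1854, 1822 and 1960.3 CPM (0.53 ± 0.04). The summed fibroblast markers were 7820.3 to 8038 TPM in scramble and 6438 to 7239 in the knockdown, without overlap, 9 of 14 called lower and 1 higher, the last being gelsolin, Gsn (0.71 ± 0.03). Collagen genes are in both lists, and the part of fibroblast numbers in the fall of matrix genes was not tested.

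Other cell types were minor. Macrophage markers summed to 62.0 to 74.7 TPM in the knockdown against 78.7 to 94.5 in scramble, with 3 of 15 lower and 0 higher. Endothelial markers stood at 172 to 188 TPM in the knockdown and 190.3 to 199 in scramble. Of 12 tested, 2 were called lower and 1 higher, or 25%, below the 36.5% of all genes. Kdr, the receptor of Vegfa, was lower (-0.41 ± 0.07). Inflammatory genes gave 3 rises and 5 falls of 25, with 1 rise without scramble replicate 2 or Btg1 knockdown replicate 2. The macrophage growth factor Csf1 fell from 309, 287 and 299.8 to 160.0, 172 and 165 CPM (-0.85 ± 0.05).

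The same Btg1 siRNA was also given on top of the Btg2 siRNA, and those cultures were compared with cultures given the Btg2 siRNA and scramble. No library is shared with the comparison above. In the double knockdown against the Btg2 knockdown, 32.2% of genes were called by edgeR, 15.2% higher and 17.0% lower. With scaling by library size alone that split became 2443 higher and 1758 lower, from 1909 and 2130. Btg1 itself changed by -2.53 ± 0.05 there. Across the 12535 genes the 2 sets of log2 changes correlated with Pearson r = 0.45 and Spearman rho = 0.41, as a description, since genes are not independent.

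Most of the larger falls were called again in those libraries. Of the 329 genes that fell at least 1.5-fold with Btg1 siRNA alone, 219 (66.6%) were called lower in the other 6 libraries and 0 higher. Of the 415 genes that rose as much, 185 (44.6%) were called higher there and 22 lower. Their median changes were -0.80 and then -0.62 for the falls, and 0.83 and then 0.36 for the rises. Over all calls, the 1118 falls found in both were 50.2% of the falls without and 52.5% of the falls with the Btg2 siRNA. The 979 shared rises were 41.8% and 51.3%.

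**Figure D4:**
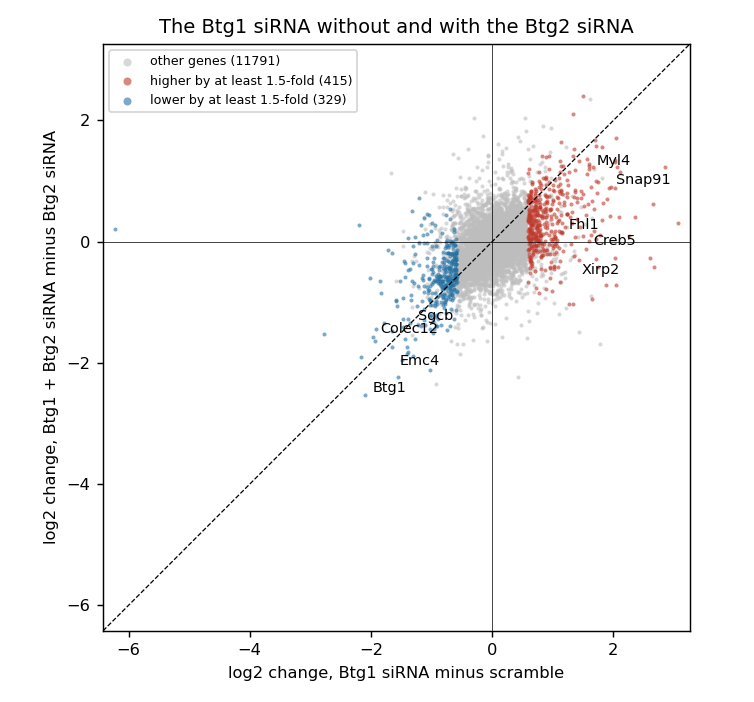
Log2 change of each gene with the Btg1 siRNA against scramble (x axis) and with the Btg1 siRNA on top of the Btg2 siRNA (y axis); blue and red mark genes called and changed at least 1.5-fold on the x axis, and the dashed line is equality. The blue falls follow the line (medians -0.80 and -0.62), while many red rises lie below it (medians 0.83 and 0.36).

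The difference of the 2 effects was tested for each gene in the same fit. It was called in 15.1% of genes, higher with the Btg2 siRNA present in 4.99% and lower in 10.1% (626 and 1264 genes). Scaling by library size alone made these 1004 and 1016. RLE scaling gave 641 and 1256, DESeq2 765 and 1348, and limma on log2(TPM + 1) 596 and 880. The lean to lower values was thus absent with library size alone and present in these other fits. Of the 1.5-fold rises 183 and of the 1.5-fold falls 51 had a called difference toward a smaller effect. Genes picked for a large change in 1 comparison tend to change less in another, so these counts describe and do not test.

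By name, several of the largest falls were alike in both settings. Emc4 stood at 83.9, 84.4 and 82.2 CPM with Btg2 siRNA and scramble, and adding Btg1 siRNA left 24.5, 25.8 and 24.7 CPM. For Sgcb the levels were 282, 301 and 291 and then 111, 122 and 112. For Atp1b2 they were 175, 181 and 172 and then 73.4, 73.1 and 72.4. In these 3 genes the drop matched the one against scramble, and the differences of -0.10 ± 0.08, 0.00 ± 0.06 and 0.11 ± 0.09 were not called. Of the 15 named falls 14 were called lower again, and of the 14 named rises 9 were called higher again. Of the rises, 13 had a called difference in the downward direction.

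Xirp2 is an example. It stood at 274, 347 and 328 CPM with the Btg2 siRNA and scramble and 296, 266 and 245 with both siRNAs, so the Btg1 siRNA raised it against scramble (1.35 ± 0.15) and not here (-0.23 ± 0.15; difference -1.58 ± 0.21, edgeR adjusted p = 0.0014). Creb5 stood at 8.94, 11.3 and 9.59 and 8.76, 9.54 and 8.91 CPM (difference -1.68 ± 0.17). Cnn1 was already at 124, 129 and 118 CPM in the Btg2 knockdown and stood at 138, 154 and 144 in the double knockdown (difference -1.21 ± 0.10). Myl4 rose again, from 72.8, 70.4 and 85.1 to 156, 184 and 187 CPM (1.20 ± 0.07), with a smaller called difference (-0.40 ± 0.10). The genes with the largest differences upward included Lyz2, a lysozyme of macrophages, at -0.53 ± 0.13 without and 0.41 ± 0.13 with the Btg2 siRNA, and the tropomodulin gene Tmod4 (difference 0.74 ± 0.16). Downward they included Ankrd23, a titin-binding ankyrin repeat protein (-1.62 ± 0.18), and Lpp, a LIM protein of focal adhesions (-1.46 ± 0.14). With the Btg2 siRNA present the largest rises by the Btg1 siRNA included Reep6 (1.25 ± 0.15), the interferon-induced GTPase Ifi47 (1.20 ± 0.07) and the coactivator Cited1 (1.05 ± 0.08), and the largest falls Prrg4 (-1.85 ± 0.08) and Brinp2 (-1.74 ± 0.16).

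Gene groups separated along the same line. Interferon genes rose in both, 30 and 30 of 39, with medians of 0.37 and 0.36 and 6 called differences. MHC class I genes rose in 8 and 14 of 16. Unfolded protein genes fell in 27 and 19 of 48, and matrix genes in 20 and 24 of 40. These groups leaned the same way in both sets of libraries.

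Other groups did not. Immediate early and ERK feedback genes gave 14 rises and 4 falls against scramble but 0 rises and 18 falls on top of the Btg2 siRNA. The difference was called downward in 22 of 32 genes and upward in 0. Differences were also called downward in 9 of 11 hypertrophic markers, 17 of 29 SRF and YAP targets and 16 of 32 sarcomere genes. Upward differences numbered 0, 0 and 1 in these lists. G2/M genes gave 4 rises and 2 falls on top of the Btg2 siRNA, with 11 of 43 differences downward. That last count fell to between 4 and 7 when Btg1 knockdown replicate 1, Btg1 knockdown replicate 3, Btg2 knockdown replicate 2, Btg2 knockdown replicate 3, double knockdown replicate 1, double knockdown replicate 3, scramble replicate 1 or scramble replicate 2 was left out.

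**Figure D5:**
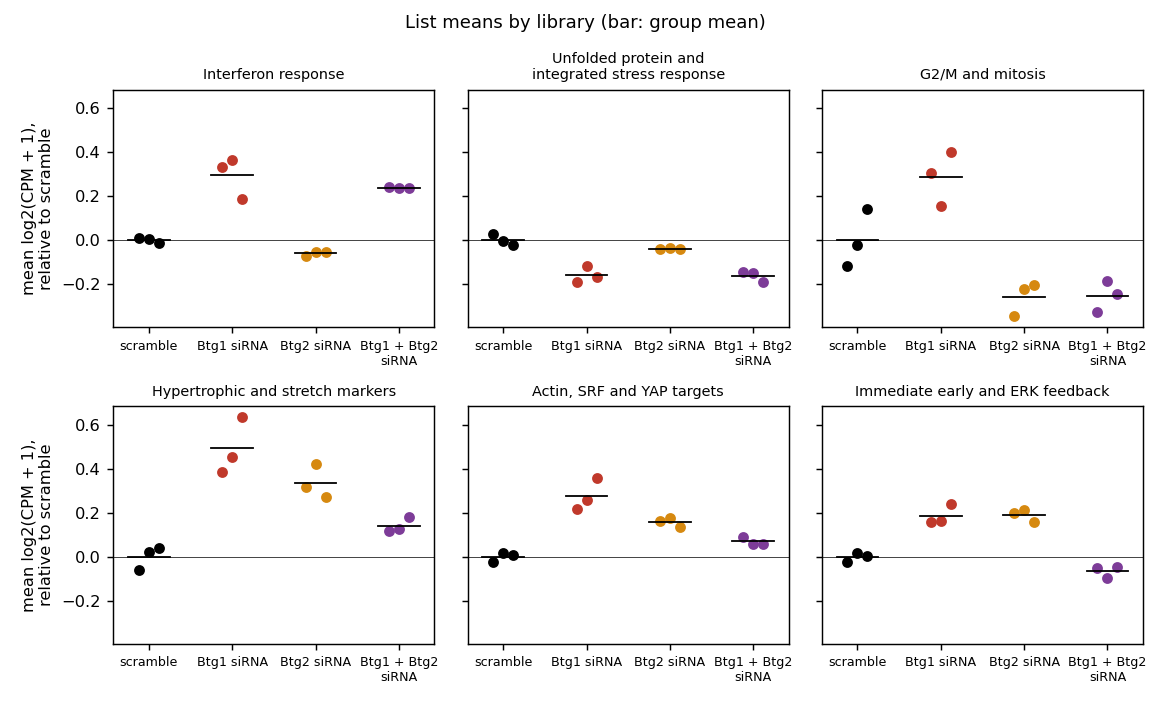
Mean log2(CPM + 1) of the tested members of 6 gene lists in each of the 12 libraries, relative to the scramble mean (y axis), by siRNA group (x axis); each point is a library. Interferon genes are raised in both groups with the Btg1 siRNA, while hypertrophic and early genes in the Btg2 knockdown already lie above scramble, at 0.32, 0.42 and 0.27 and 0.20, 0.21 and 0.16.

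Against the Btg2 knockdown, which had the same amount of scramble and of targeting siRNA, 40.8% of genes differed by edgeR, 20.3% higher and 20.6% lower in the Btg1 knockdown. Scaling by library size alone made these 2911 and 2143 genes, from 2540 and 2580. This comparison shares the Btg1 knockdown libraries with the first. Btg1 was lower (-2.18 ± 0.04) and Btg2 higher (1.04 ± 0.04). Interferon genes were higher in 32 of 39 and G2/M genes in 38 of 43, while hypertrophic markers gave 4 higher and 2 lower of 11. Relative to the scramble mean, the G2/M mean was -0.35, -0.22 and -0.21 in the Btg2 knockdown libraries and -0.12, -0.02 and 0.14 in scramble. The G2/M count here thus also reflects lower levels in the Btg2 knockdown. Lrat, which stores vitamin A as retinyl esters, was lower than with the Btg2 siRNA (-2.31 ± 0.27).

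Called genes were not spread evenly over level and length. When genes were ranked by CPM and cut into 5 equal bins, the share called higher rose from 8.93% in the lowest bin to 26.7% in the highest, and the share called lower from 7.74% to 24.4%. In 5 bins of the gene length that the deposited counts and TPM imply, 11.8% of the shortest and 27.3% of the longest genes were called higher, while 17.4% and 19.6% were called lower. Median levels in those bins were 24.8 and 57.3 CPM, and their median log2 changes -0.02 and 0.03.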

How the data were processed

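RNA of 12 cultures (4 groups of 3) was amplified, made into libraries by tagmentation and sequenced paired-end, per the labels' protocols. The deposited table of counts holds raw fragment or read counts per gene symbol; STAR, featureCounts and rn5 are named in the submitters' processing notes, while the tool versions, the annotation, the strand setting and how mates were counted were not given in the sources used here. TPM, in a deposited table, were made by the authors and were used for levels per length and for marker sums. Groups followed the treatment in the titles.

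edgeR 4.0.16 was run on the counts of all 12 libraries: TMM scaling, filterByExpr (4884 genes removed), a robust quasi-likelihood fit with 8 residual degrees of freedom and Benjamini-Hochberg adjustment within each contrast at 0.05. The SE is the log2 change divided by the square root of F. CPM were computed from the counts with the TMM-scaled library totals. The fit was tested on simulated data. The members and lists were chosen with earlier results of these data known. Named genes are Btg1, Btg2, the 15 called rises and falls of largest size with a mean of at least 5 CPM, an established symbol and no overlap, 5 and 5 in each other comparison, and per list up to 6 members of smallest p plus those needed to describe a role; a few genes that this rule selects are not reported here, and counts over lists include them. Markers were 9 further lists. RefSeq matched 17074 symbols by name, 345 not. Replicates were compared before averaging, and none were identical. Alternatives were DESeq2 1.42.0, other scaling and filters, a fit of the compared groups alone, a replicate block, limma 3.58.1 on log2(TPM + 1) and log2(TPM + 0.1), and each library left out. Depth and replicate number limit precision: CPM are relative to each library's total, so they show shares of RNA and not amounts per cell. Amplified libraries without molecular identifiers hold copies of molecules, so counts are not independent molecules.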

Additional observations from a re-analysis of the deposited data

Results flagged for a closer look

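The Btg1 siRNA effect differed with the Btg2 siRNA present in 1890 genes by edgeR's test of the difference itself, which sets the double knockdown against the Btg2 knockdown and the Btg1 knockdown against scramble. Among the genes named here 87 had such a difference, 70 downward and 17 upward. Each value below is the log2 change with the Btg2 siRNA present minus the one without it. A negative value thus means a smaller rise, a rise lost or turned into a fall, or a larger fall. Among the genes that rose most against scramble it was -1.21 for Cnn1, -1.68 for Creb5, -1.35 for F2rl1, -0.995 for Fhl1, -0.96 for Itga6, -1.11 for Lmcd1, -0.42 for Lpar3, -0.40 for Myl4 and -0.996 for Sik1. In the same group it was -1.04 for Snap91, -1.02 for Sypl2, -1.58 for Xirp2 and -0.77 for Zfp365. Among the genes that fell most against scramble it was -0.44 for Btg1, 0.40 for Colec12, 1.12 for Efhd1 and 0.54 for Slc25a34. Among sarcomere and stretch genes it was 0.20 for Myh6, -0.57 for Actc1, -0.77 for Acta1, -0.72 for Csrp3, -0.44 for Synpo2l, -0.24 for Des, -0.54 for Nrap, -0.58 for Nppa and -0.52 for Nppb. In the same group it was -0.57 for Ankrd1, -0.64 for Rcan1 and -0.25 for Ryr2. Among SRF and YAP targets it was -0.51 for Tagln, -0.41 for Srf, -0.75 for Ccn1, -0.83 for Ccn2 and -1.05 for Tgfb2. Among immediate early and ERK feedback genes it was -0.68 for Jund, -0.83 for Atf3, -0.90 for Egr1, -0.55 for Dusp1, -0.51 for Dusp6 and -0.37 for Spry4. Among cell cycle genes it was -0.36 for Ccnb1, -0.47 for Plk1, -0.64 for Ect2, -0.64 for Prc1, -0.24 for Ccnd1, -0.69 for Ccnd2, -0.57 for E2f1, -0.33 for Mcm6 and 0.20 for Cdkn1a. Among channel, junction and cardiac factor genes it was -0.53 for Casq1, -0.42 for Jph2, -0.46 for Tjp1, -0.47 for Dmd, -0.26 for Gata4, -0.88 for Tbx20 and -0.57 for Myocd. Among interferon, antigen processing and cytokine genes it was -0.28 for Ifih1, 0.23 for Irf7, -0.33 for Rsad2, 0.47 for Cxcl11, 0.33 for Tapbpl, 0.31 for Psmb8 and 0.26 for Csf1. Among endoplasmic reticulum and lysosome genes it was -0.36 for Ern1, 0.23 for Ddit3, 0.34 for Atf5, -0.23 for Emc1, 0.28 for Ssr2 and 0.34 for Ulk1. Among growth factor, matrix and fibroblast genes it was -0.56 for Bmp7, -0.25 for Ltbp2, -1.11 for Hbegf, -0.73 for Insr, -0.38 for Lamc1 and -0.18 for Gsn. Among lipid and glucose genes it was -0.18 for Pfkp. Among the BTG family and mRNA decay it was -0.65 for Btg2, -0.29 for Cnot6, -0.34 for Cnot6l, -0.25 for Patl1 and -0.38 for Xrn1. Among other genes named it was -1.62 for Ankrd23, 0.30 for Gstm1, -1.46 for Lpp, 0.94 for Lyz2, -1.32 for Prrg4 and 0.74 for Tmod4. When each of the 12 libraries was left out in turn, the call ended at least once for 20 of these genes. They were Acta1, Ccnb1, Ccnd1, Cdkn1a, Cnot6, Cnot6l, Colec12, Ddit3, E2f1, Gsn, Gstm1, Jund, Lpar3, Ltbp2, Mcm6, Myh6, Patl1, Pfkp, Plk1 and Psmb8. It ended with any of 9 libraries for Acta1, Ccnb1, Cnot6l, Mcm6, Myh6 and Plk1, 8 for Cdkn1a, 7 for Colec12 and Ddit3, and only 1 for Gsn. No group had the 4 samples needed to look for a library far from the rest of its group.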

How the results depend on the processing

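The count of genes called between Btg1 knockdown and scramble was 4571; it ran from 4166 to 5013 over the alternatives to the fit and from 3716 to 4050 with 1 library left out. No total count of called genes, in any of the 4 comparisons, moved by more than 1.5 times. No named change that was called in the reported fit changed sign under an alternative. For the 25 named genes not called, a sign change counted only if it passed in the alternative, and none did. Of the 159 named genes called against scramble, 157 kept the call in all 15 alternatives that apply to that comparison. Nppa and Socs3 were the exceptions. Most named genes were picked for a large change or a small p in this same fit. That made a kept call likely from the outset, so this count does not extend to called genes at large. Whether replicate numbers pair the libraries is not in the labels, and so few libraries cannot settle it. Deviations of same-numbered scramble and Btg1 knockdown libraries correlated at 0.11, -0.05 and 0.04, and of different-numbered ones at -0.18 to 0.14. Between the Btg2 and double knockdowns these were -0.14, 0.16 and -0.25, and -0.36 to 0.42. With the replicate block 4455 genes were called. A limit common to all comparisons is 3 libraries a group from an amplified protocol.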
